A study of Homo sapiens with 6 samples.

Results

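The tissue kallikreins are a family of secreted serine peptidases whose genes lie side by side on the long arm of chromosome 19. The 10 genes described here, KLK2, KLK3, KLK5, KLK6, KLK7, KLK8, KLK10, KLK11, KLK13 and KLK14, were taken by name, each through the probe set that the platform annotation assigns to that gene symbol alone. Each had 1 such probe set, so the 10 genes stand for 10 of the 18404 named genes measured. KLK2 and KLK3 are the androgen-driven kallikreins of prostate luminal cells, and the other 8 are best known from epidermis and other squamous epithelia. All cells were of PrEC, a line derived from normal prostate epithelium and immortalized, kept in a commercial medium for prostate epithelium and harvested under basal conditions at 48 hours from plating. The reference group, shNT, carried the hairpin of that name (3 arrays), and the other group, shPKCi, carried a hairpin against the atypical protein kinase C written PKCl/i in the labels and encoded by PRKCI (3 arrays). Whether each hairpin line was 1 clone or a pool was not given in the sources used here, and a single hairpin against the kinase was profiled. The series describes the 3 samples of each group as biological replicates.

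Kallikreins are made as inactive zymogens and are switched on by trimming of a short propeptide, often by another kallikrein. In the prostate, the KLK2 product can activate the KLK3 product, prostate-specific antigen, which liquefies the seminal clot. In the outer epidermis, the KLK5 product activates itself and those of KLK7 and KLK14, and these enzymes cut the corneodesmosomes that hold shed cells together, under the control of inhibitors such as that encoded by SPINK5.

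The hairpin target was lower on every shPKCi array: PRKCI ranged from 1428 to 1843 in shNT and from 754 to 810.2 in shPKCi (log2 difference -1.05, SE 0.11, limma adjusted p = 0.000279). At an adjusted p under 0.05, 9.55% of the 18404 genes passed as higher in shPKCi and 8.95% as lower (18.5% together), and in 35.7% the groups did not overlap. The median log2 difference of all genes was -0.02. Array median intensities lay between 44.9 and 48.6. The array of shNT replicate 2 stood apart, with correlations of 0.974 to 0.989 with the others, against 0.982 to 0.996 among the other 5. It also gave the highest of the 3 shNT values in 44.9% of genes. The basal keratin genes KRT5 and KRT14 lay at the 99.6th and 97.1th percentiles of signal, and KRT15, a further basal keratin gene, at the 34.0th. Luminal markers were bright as well, with KRT8, KRT18 and KRT19 at the 95.9th, 96.3th and 95.8th percentiles, while the secretory luminal genes ACP3 and MSMB lay at the 31.4th and 4.30th.

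KLK6 rose strongly in shPKCi and KLK7 fell slightly, while the other 8 kallikreins, KLK2 and KLK3 among them, did not pass the test. The share that rose, 1 of 10, stands beside the 9.55% of all genes, and the share that fell, 1 of 10, beside 8.95%. In 5 of the 10 genes, KLK5, KLK6, KLK7, KLK10 and KLK11, the groups did not overlap, beside 35.7% of all genes. At an unadjusted p under 0.05, KLK5 and KLK10 were also higher and KLK11 lower, which makes 3 higher and 2 lower. At that threshold, 5473 of the 18404 genes passed in either direction. The median log2 difference of the 10 was -0.16. The members are too few and were chosen with earlier results in view, so these counts describe the 10 genes alone. In RNA from whole cultures, fewer cells with a high level and less RNA per cell cannot be told apart.

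**Figure D1:**
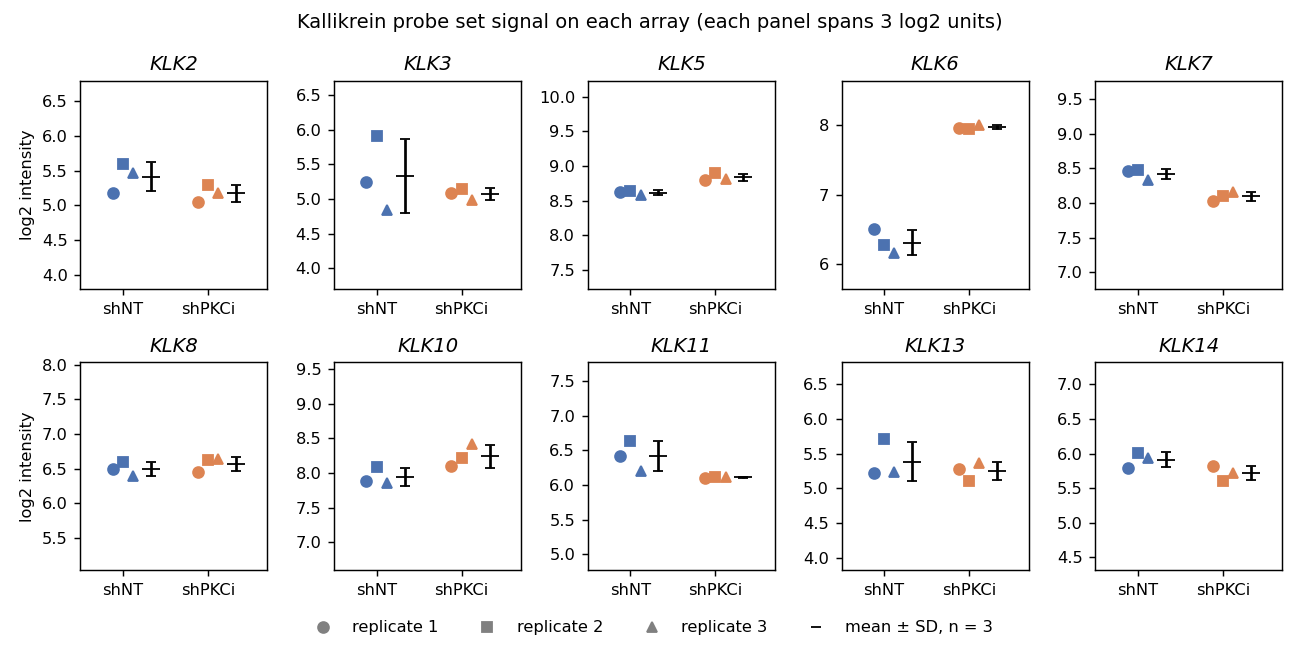
log2 intensity (vertical axis) of the 10 kallikrein genes on each of 6 arrays, by group, with replicates marked by shape and the mean ± SD (n = 3) in black; every panel spans the same number of log2 units. KLK6 lies at 6.31 ± 0.18 in shNT and 7.97 ± 0.03 in shPKCi, and in KLK3 the shNT replicate 2 array lies above all the others.

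KLK6 encodes a trypsin-like peptidase, also known as neurosin, that is abundant in the central nervous system and present in many epithelia. Replicates 1 to 3 gave intensities of 90.6, 77.0 and 71.0 for KLK6 in shNT, against 248, 247 and 257 in shPKCi. Every shPKCi array was thus far above every shNT array, and the shPKCi arrays lay close together. On the log2 scale the shNT mean was 6.31 ± 0.18 and the shPKCi mean 7.97 ± 0.03 (SD, n = 3). The log2 difference was 1.66 (SE 0.11, 95% interval 1.41 to 1.91, limma adjusted p = 1.92e-05), or 3.17-fold higher. By size it was number 20 among the 1758 genes that rose. With 1 array left out, the log2 difference of KLK6 ranged from 1.58 to 1.76.

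KLK7 encodes a chymotrypsin-like peptidase of the stratum corneum that cleaves corneodesmosin. Its intensities were 351, 355 and 323 in shNT and 261, 276 and 284 in shPKCi. The groups did not overlap, but the gap between the lowest shNT array and the highest shPKCi array was small. The log2 difference was -0.32 (SE 0.09, 95% interval -0.54 to -0.11, limma adjusted p = 0.0395), or 1.25-fold lower, and its place by size was number 1624 of the 1648 genes that fell. The call was lost without shNT replicate 1 (adjusted p = 0.106), shNT replicate 3 (0.0554), shPKCi replicate 1 (0.148), shPKCi replicate 2 (0.124) or shPKCi replicate 3 (0.0783), after median centring of the arrays (0.0703), and with the replicate number as a block (0.0901).

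KLK5 encodes the trypsin-like peptidase that starts the epidermal cascade. Its intensities were 396, 398 and 383 in shNT and 444, 476 and 449.9 in shPKCi. All shPKCi arrays were above all shNT arrays, yet the log2 difference of 0.22 (SE 0.09, 95% interval 0.02 to 0.42) did not pass after adjustment (limma adjusted p = 0.135). The remaining activation partner in epidermis, KLK14, a trypsin-like peptidase, gave 55.4, 64.3 and 61.1 in shNT and 56.5, 48.9 and 52.7 in shPKCi. Its groups overlapped through 1 array on each side, with a log2 difference of -0.19 (95% interval -0.43 to 0.04, limma adjusted p = 0.257). Among these 3 genes of the cascade, the unadjusted intervals thus excluded a 2-fold change in signal in either direction. KLK14 was dim, at the 43.6th percentile of signal, so its interval may not bound a change in its transcript.

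KLK10 and KLK11 lay apart between the groups without passing the test. KLK10, known as a gene of normal breast epithelium that is lost in breast cancer, gave intensities of 235, 273 and 232 in shNT and of 273, 296 and 342 in shPKCi. The highest shNT array, replicate 2, lay just below the lowest shPKCi array. The log2 difference of KLK10 was 0.30 (SE 0.12, 95% interval 0.04 to 0.56, limma adjusted p = 0.117). It passed without shNT replicate 2, at 0.37 (adjusted p = 0.0448), and after median centring of the arrays, at 0.35 (0.0492). KLK11, which encodes a trypsin-like peptidase found in skin, prostate and brain, gave 85.6, 99.8 and 74.0 in shNT and 68.9, 69.6 and 69.3 in shPKCi. Its shPKCi arrays were nearly equal and its shNT arrays were spread widely above them. The log2 difference of KLK11 was -0.31 (SE 0.12, 95% interval -0.58 to -0.04, limma adjusted p = 0.11), and it passed without shNT replicate 3 (-0.42, adjusted p = 0.0454).

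KLK8 and KLK13 overlapped between the groups. KLK8, whose product neuropsin is found in epidermis and hippocampus, ranged from 84.3 to 96.6 in shNT and from 87.5 to 99.4 in shPKCi, with a log2 difference of 0.07 (95% interval -0.15 to 0.30, limma adjusted p = 0.699). KLK13, a kallikrein of squamous epithelia such as oesophagus, ranged from 37.2 to 52.1 in shNT and from 34.4 to 41.0 in shPKCi. Its log2 difference was -0.14 (95% interval -0.46 to 0.19, limma adjusted p = 0.602). The annotation lists 1 transcript record under both KLK8 and KLK9, so that signal from a joint transcript could reach both probe sets.

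The prostate kallikreins were dim and did not pass. KLK3 gave 38.1, 59.9 and 28.8 in shNT and 33.9, 35.6 and 31.7 in shPKCi. The shNT arrays held both the highest and the lowest value, and the shPKCi arrays lay between them. The log2 difference of KLK3 was -0.26 (SE 0.22, 95% interval -0.75 to 0.23, limma adjusted p = 0.499), and it was 0.02 without shNT replicate 2 (adjusted p = 0.926) and -0.50 without shNT replicate 3 (adjusted p = 0.111). KLK2 gave 36.2, 48.2 and 44.4 in shNT and 33.1, 39.1 and 36.3 in shPKCi. Here too the groups overlapped and shNT replicate 2 was highest, with a log2 difference of -0.24 (SE 0.13, 95% interval -0.52 to 0.04, limma adjusted p = 0.244).

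No detection calls were used, so whether KLK2 and KLK3 were expressed at all cannot be told from these values. Their signal lay at the 34.1th and 32.6th percentiles of all genes. A reference was taken from 14 measured genes of unrelated tissues such as liver, heart and brain, whose mean log2 signal ran from 3.14 to 6.48 with a median of 4.66. Over all 6 arrays, those of KLK2 (5.29), KLK3 (5.20), KLK13 (5.31), KLK14 (5.81) and KLK11 (6.27) lay inside that range, and the other 5 kallikreins lay above it. KLK8 (6.53) lay only just above. KLK6 (7.14) lay above through the shPKCi arrays, since its shNT mean of 6.31 was inside the range. The upper edge of the range is MBP alone, and against the next gene, GFAP (5.53), KLK11 and KLK14 also lay above. Probe sets differ in how they respond, so these figures place brightness and do not rank transcripts. The array of shNT replicate 2 gave the highest of all 6 values in 6 of the 10 kallikreins, in 30.8% of all genes and in 39.7% of the 1840 genes between the 30th and 40th percentiles of signal. Of the 10 kallikreins, only KLK2, KLK3 and KLK13 lie in that band. Among the shNT arrays alone, replicate 2 was highest in 9 of the 10, with KLK6 as the exception. The shares for that count were 44.9% of all genes and 55.3% of the genes in the band. The part of this array in the results was tested by leaving it out, and KLK6 then had a log2 difference of 1.64 and KLK7 remained past the threshold.

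The contrast between prostate and epidermal kallikreins was set out per array as the mean log2 deviation from the mean of the 6 arrays. For KLK2 and KLK3, shNT replicates 1 to 3 had -0.03, 0.50 and -0.09, and the shPKCi arrays had -0.18, -0.03 and -0.17, so that the groups overlapped. The mean difference, shPKCi minus shNT, was -0.25, and with 1 array left out it ran from -0.36 (without shNT replicate 3) to -0.06 (without shNT replicate 2). For the 8 epidermal genes the deviations were -0.10, 0.03 and -0.18 in shNT and 0.05, 0.06 and 0.13 in shPKCi, with a mean difference of 0.16. These did not overlap, but the 8 genes behind them went both ways, with differences from -0.32 to 1.66 and a median of -0.03. The largest was that of KLK6 and the next was 0.30 (KLK10). The positive mean and the separation thus rest on KLK6 and do not show a shift of the set. The 2 sets were described only, and the difference between them was not tested.

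Along chromosome 19, the RefSeq gene order of GRCh38.p14 runs KLK1, KLK15, KLK3, KLK2, the pseudogene KLKP1, KLK4, KLK5, KLK6 and KLK7, and then KLK8 to KLK14 in number order. The gene that rose therefore has KLK5 and KLK7 as its nearest kallikrein neighbours. Within each array, log2 KLK6 minus log2 KLK7 averaged -2.11 ± 0.14 over the shNT arrays and -0.13 ± 0.05 over the shPKCi arrays (SD, n = 3), a shift of 1.99. The shift of KLK6 against KLK5 was 1.44, and that of KLK5 against KLK7 was 0.54. In each of these 3 pairs the groups did not overlap. An exact permutation test gave p = 0.1 for each, the smallest it can give with 3 arrays per group, so it cannot decide. KLK6 and KLK7 were already seen to differ, and the pairs are a description. The same RefSeq table places a long non-coding RNA gene across KLK6 and part of KLK5, and whether its transcripts reach the KLK6 probes was not tested.

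**Figure D2:**
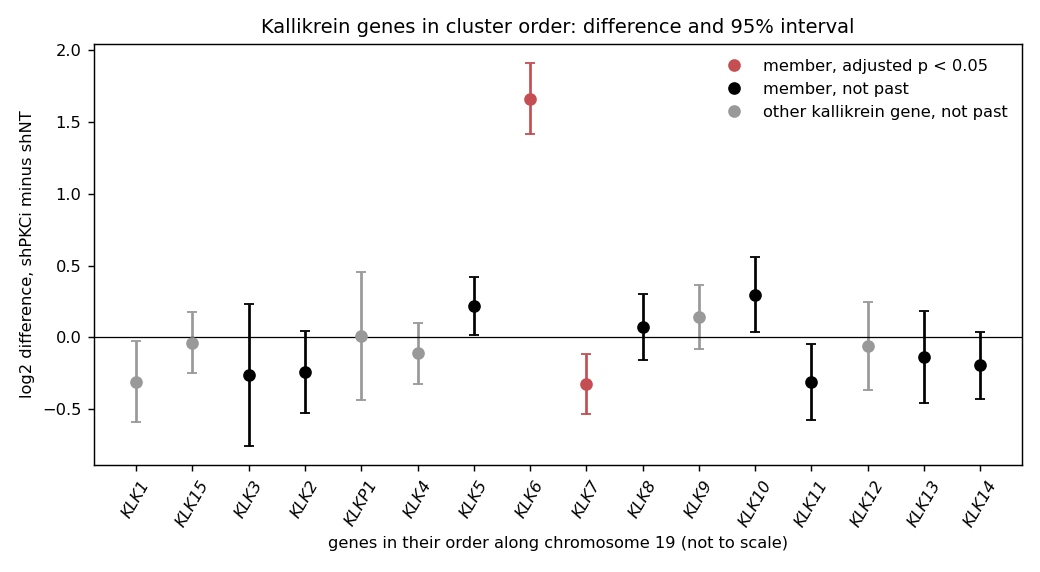
log2 difference, shPKCi minus shNT, with its 95% interval from limma for 16 kallikrein genes, the pseudogene included, in their order along chromosome 19 (horizontal axis, not to scale). KLK6 lies at 1.66, and its neighbours KLK5 and KLK7 lie at 0.22 and -0.32.

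None of the kallikrein genes outside the 10 passed limma's test after adjustment, and KLK1 alone was under 0.05 before it. The log2 differences of KLK1, KLK4, KLK9, KLK12 and KLK15 were -0.31, -0.11, 0.14, -0.06 and -0.04, and the limma adjusted p-values ran from 0.13 to 0.853. KLK1 is the classical tissue kallikrein that releases kinins, and it passed without shNT replicate 2 (-0.40, adjusted p = 0.0369). KLK4, known from enamel and as an androgen-regulated prostate gene, gave 33.5 to 37.8 in shNT and 32.1 to 33.8 in shPKCi. The pseudogene KLKP1, which lies between KLK2 and KLK4, had a log2 difference of 0.01 (adjusted p = 0.989). Of the nearest protein-coding genes outside the cluster, ACP4 had -0.14 (adjusted p = 0.546) and CTU1 0.13 (adjusted p = 0.427).

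The promoter windows of 5 kallikrein genes are shown because they set the gene that rose beside its neighbours and the prostate pair side by side. Each is the 250 bases before the outermost RefSeq start of that gene in GRCh38.p14, read 5′ to 3′ on the strand of the gene. KLK2 is chr19:50873189-50873438 (+), KLK3 is chr19:50854665-50854914 (+), KLK5 is chr19:50953039-50953288 (-), KLK6 is chr19:50969592-50969841 (-) and KLK7 is chr19:50984065-50984314 (-). Capitals mark a match to any of 4 short motifs on either strand: the AP-1 site TGANTCA, the hypoxia response core ACGTG, the TATA box TATAA and the GRHL hexamer AACCGG.
KLK2: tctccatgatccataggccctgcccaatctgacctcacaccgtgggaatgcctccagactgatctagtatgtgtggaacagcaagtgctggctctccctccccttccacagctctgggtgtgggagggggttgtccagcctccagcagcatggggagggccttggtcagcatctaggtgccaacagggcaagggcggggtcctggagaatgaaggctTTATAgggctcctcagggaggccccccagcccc
KLK3: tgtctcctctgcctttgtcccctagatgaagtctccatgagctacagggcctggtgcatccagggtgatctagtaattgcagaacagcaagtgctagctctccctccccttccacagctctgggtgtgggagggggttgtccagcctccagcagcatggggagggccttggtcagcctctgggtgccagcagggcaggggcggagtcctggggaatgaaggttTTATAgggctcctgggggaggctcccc
KLK5: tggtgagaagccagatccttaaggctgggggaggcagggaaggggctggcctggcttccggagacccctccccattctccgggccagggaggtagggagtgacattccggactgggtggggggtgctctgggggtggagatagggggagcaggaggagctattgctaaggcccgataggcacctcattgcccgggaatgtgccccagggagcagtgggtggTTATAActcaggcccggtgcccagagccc
KLK6: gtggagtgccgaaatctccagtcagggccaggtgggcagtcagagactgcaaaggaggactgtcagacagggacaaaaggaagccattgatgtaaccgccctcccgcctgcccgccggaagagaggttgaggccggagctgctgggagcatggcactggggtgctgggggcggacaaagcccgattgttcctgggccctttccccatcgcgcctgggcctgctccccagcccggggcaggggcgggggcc
KLK7: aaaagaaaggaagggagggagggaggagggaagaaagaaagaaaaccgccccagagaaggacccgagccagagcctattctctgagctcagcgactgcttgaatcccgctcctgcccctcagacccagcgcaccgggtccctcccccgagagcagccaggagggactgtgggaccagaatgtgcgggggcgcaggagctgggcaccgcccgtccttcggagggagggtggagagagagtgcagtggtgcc

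KLK2 and KLK3 matched at 205 of 241 aligned bases of these windows (85.1%), the most alike of the 36 pairs among the 9 members with a window, with KLK2 and KLK10 next at 61.9%. Their transcripts are likewise close relatives, so that either probe set may bind RNA of the other gene. TATAA occurs in 18.9% of the 35116 windows of all genes, and among the 5 shown it is in those of KLK2, KLK3 and KLK5. Of the other motifs, ACGTG (18.5% of all windows) was in those of KLK10 and KLK11, and TGANTCA (6.57%) and AACCGG (5.99%) were in none of the 9. The windows of KLK6 and KLK7 hold none of the 4 motifs. A match or its absence describes only these letters in this stretch. Androgen receptor sites had been planned as a motif but were not searched, so the windows of KLK2 and KLK3 may hold unmarked ones.

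The genes whose 6 values most resembled those of the 2 called kallikreins were sought among all named genes, with likeness measured as the root mean square difference between log2 values centred on their own mean. KLK6 was nearest to the cytokine gene IL24 (0.07 log2 units over 6 arrays) and to HAS2, which encodes a hyaluronan synthase (0.08). Their log2 differences were 1.68 and 1.60. KLK7 was nearest to TRAPPC1 and TSC1 (0.03 each), which had log2 differences of -0.33 and -0.27. Many genes share a shape over 6 arrays, and the likeness is a description.

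Of 8 measured genes that inhibit kallikreins, 1 rose and 2 fell, beside 9.55% and 8.95% of all genes, with a median log2 difference of -0.08 beside -0.02 for all genes. SERPINA3, which encodes antichymotrypsin, a plasma inhibitor that binds prostate-specific antigen, fell by 1.43 on the log2 scale (limma adjusted p = 6.43e-05). SLPI, a secreted leukocyte protease inhibitor, fell by 0.87 (adjusted p = 0.00166). PI3, which encodes elafin, rose by 0.48 (adjusted p = 0.0197), but lost its call in 4 of the 6 fits without 1 array (adjusted p from 0.0501 to 0.078). SPINK6, an inhibitor of epidermal kallikreins, was dim and had -0.14 (adjusted p = 0.605), and SPINK5 was not analysed here.

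Of 9 measured proteases that activate kallikreins or are activated by them, 4 fell and none rose at an adjusted p under 0.05 (limma), beside 8.95% and 9.55% of all genes, and the median was -0.07 beside -0.02. At an unadjusted p under 0.05, 4 were lower and 1 higher (PLAU), beside 5473 of all 18404 genes in either direction. TMPRSS4 and PRSS8, the gene of prostasin, fell by 0.86 and 0.83 (limma adjusted p = 0.000391 and 0.00054). ST14, which encodes matriptase, an activator of epidermal kallikrein zymogens, fell by 0.40 (adjusted p = 0.0323), a call lost in 5 of the 6 fits without 1 array. MMP2 fell by 0.34 (adjusted p = 0.0405), a call lost in all 6 of those fits. PLAU, the urokinase gene, had a log2 difference of 0.25 (adjusted p = 0.0849), and HPN, which encodes the membrane-anchored protease hepsin, had -0.07 (adjusted p = 0.71) with overlapping groups.

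Of 13 measured genes for kallikrein substrates and receptors, 4 fell and none rose at an adjusted p under 0.05 (limma), beside 8.95% and 9.55% of all genes. At an unadjusted p under 0.05, 5 were lower and 0 higher, beside 5473 of all 18404 genes in either direction. The median was -0.09 beside -0.02 for all genes. IGFBP3, whose product is cut by prostate-specific antigen, was 4.69-fold lower (limma adjusted p = 6.83e-06). F2R, the thrombin receptor gene of the protease-activated family, was 2.88-fold lower and L1CAM 2.27-fold lower. DSG1, the corneodesmosomal cadherin gene, was 3.17-fold lower (adjusted p = 3.44e-05). CDSN, which encodes corneodesmosin, had a log2 difference of 0.03 (95% interval -0.37 to 0.43, adjusted p = 0.951) and FLG, the filaggrin gene, -0.09 (adjusted p = 0.726). The protease-activated receptor gene F2RL1 was not analysed here.

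Genes of epidermal differentiation, with which the epidermal kallikreins are usually listed, fell in part while KLK6 rose. Of 19 measured genes of late epidermal differentiation, 6 fell and none rose at an adjusted p under 0.05 (limma), beside 8.95% and 9.55% of all genes. At an unadjusted p under 0.05, 8 were lower and 0 higher, beside 5473 of all 18404 genes in either direction. The median was -0.18 beside -0.02 for all genes. TGM1, which encodes a cross-linking enzyme of the cornified envelope, was 5.03-fold lower, KRTDAP 3.01-fold and SBSN 1.75-fold (limma adjusted p = 1.62e-06, 0.000156 and 0.00142), and CASP14 and DSG1 were also among the 6. Of 14 measured transcription factors of epidermal differentiation, 9 fell and none rose, against 10 lower and 1 higher (VDR) at an unadjusted p under 0.05, and the median was -0.76. ZNF750 was 3.29-fold lower, PRDM1 2.54-fold, NOTCH1 2.08-fold, GRHL1 1.79-fold and GRHL3 1.67-fold, with adjusted p-values at or below 0.00054. Without shNT replicate 2, 9 factors fell and 1 rose. These lists share FLG, CDSN, DSG1 and DSC1 with the substrates, and several of their genes were known to differ in these arrays when the lists were drawn up.

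**Figure D3:**
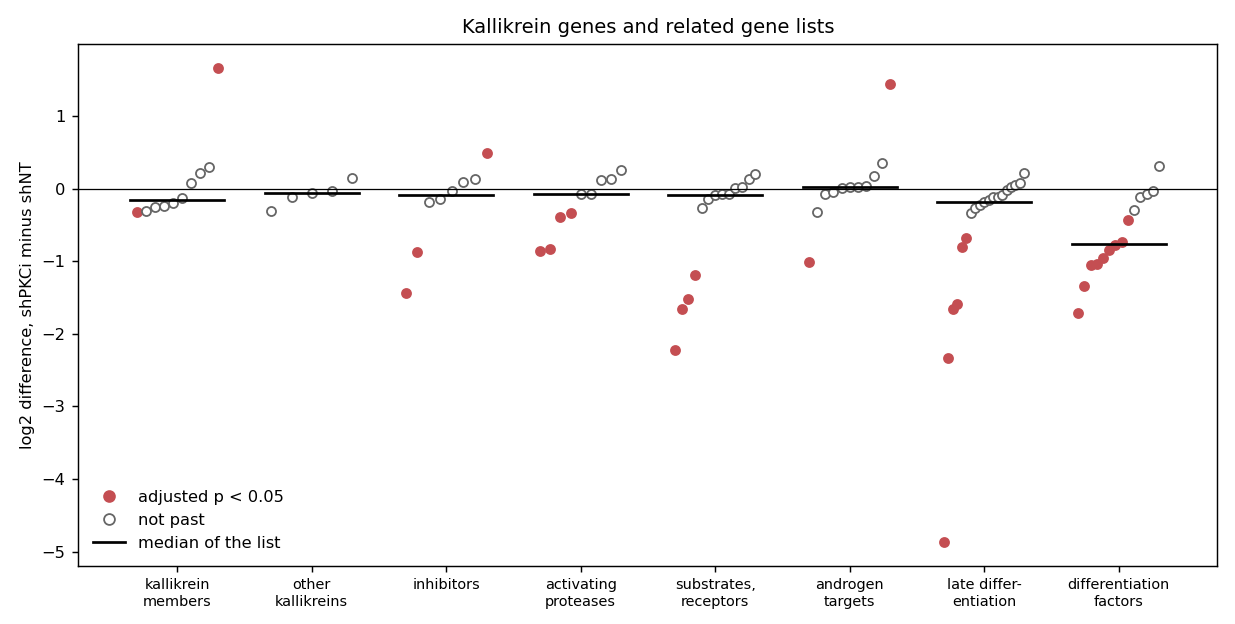
log2 difference, shPKCi minus shNT, of each measured gene in the kallikrein set and 7 related lists; filled points passed an adjusted p under 0.05 and the black line is the median of the list. The differentiation factors have the lowest median, -0.76, and KLK6 and STEAP1 are the highest points, at 1.66 and 1.43.

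Among 11 measured androgen-responsive genes of the prostate, a programme to which KLK2 and KLK3 belong, 1 rose and 1 fell, shares close to the 9.55% and 8.95% of all genes, with a median of 0.01. At an unadjusted p under 0.05, 2 were higher and 2 lower, beside 5473 of all 18404 genes in either direction. STEAP1, a gene known from prostate cancer, was 2.70-fold higher (limma adjusted p = 8.8e-05). ACP3, which encodes prostatic acid phosphatase, was 2.02-fold lower (adjusted p = 0.00127). SLC45A3, HOXB13 and TRPM8 had log2 differences of 0.02, -0.07 and 0.01, and none passed.

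Of all genes, 8.95% fell and 9.55% rose, and the marker counts that follow stand beside these shares. Markers of basal epithelium moved with the same contrast: 5 of 7 measured fell (KRT14, KRT15, ITGB4, CDH3 and DSG3). KRT5 (-0.27, limma adjusted p = 0.0682) and ITGA6 (0.06, adjusted p = 0.786) did not pass. The summed intensity of the 7 ran from 11810.2 to 12910.2 in shNT and from 9822 to 10005 in shPKCi. DSG3 alone averaged 1932 in shNT and 720 in shPKCi. Of 6 luminal markers 3 fell (KRT19, ACP3 and DPP4) and none rose. KRT8, KRT18 and MSMB had log2 differences of 0.34, 0.27 and 0.03 and did not pass. The luminal sums overlapped, at 3868 to 4623 and 3869 to 4042. Fibroblast markers summed to 302 to 375 and 256 to 277, with 1 of 7 lower (COL1A1, log2 difference -0.49, limma adjusted p = 0.0244). The 7 fibroblast genes lay between the 1.81th percentile of signal (LUM) and the 62.1th (COL1A1). Blood markers summed to 347 to 369 and 319 to 329, most of it from CD68, which averaged 283 in shNT and 243 in shPKCi and did not pass (adjusted p = 0.137). Of the 5 blood genes, CD3D alone passed, as higher (0.34, adjusted p = 0.0324); their percentiles ran from 1.17 (PTPRC) to 78.9 (CD68). The sums of 5 endothelial and 6 neuroendocrine markers overlapped between the groups, and of these genes KDR alone passed, as lower (-0.43, adjusted p = 0.0193). The part of these differences in the kallikrein values was not tested.

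**Figure D4:**
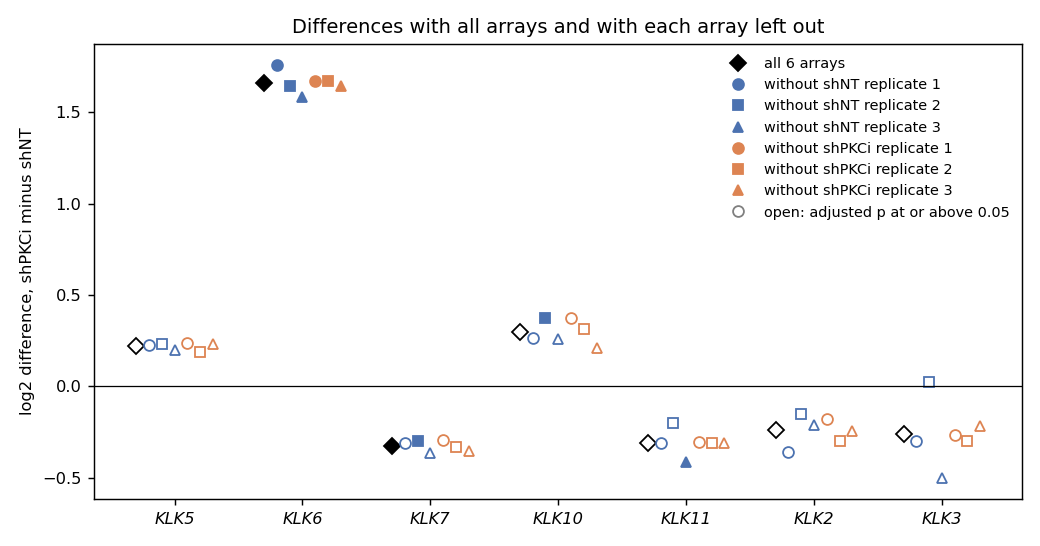
log2 difference, shPKCi minus shNT, of 7 kallikrein genes with all 6 arrays (diamonds) and with each array left out; filled symbols passed an adjusted p under 0.05. KLK6 stays between 1.58 and 1.76, KLK7 passes in 1 of its 6 reduced fits, and KLK3 moves to 0.02 without shNT replicate 2.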

How the data were processed

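Each of 6 samples of biotin-labelled total RNA was run on its own array, per the labels' protocols. The file deposited by the authors holds linear intensity values for 32321 probe sets. The submitters' processing notes name RMA, a method that corrects background, applies quantile normalization and summarises probes; no version or build was given in the sources used here. RMA usually returns log2 values, so that the authors converted them back was inferred from the values. Quantile normalization forces like distributions on the arrays and can hide a global shift.

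Here intensities were taken to log2. The platform annotation gave 1 symbol for 19158 probe sets, several for 1388 and none for 11775; the brightest probe set stood for each of 18404 genes. limma 3.58.1 in R 4.3.3 (lmFit, eBayes) was fitted to all 6 arrays with no covariate and no filter, with Benjamini-Hochberg adjustment over all genes at 0.05. The 95% intervals use the moderated standard errors and are unadjusted. The fit was tested on simulated data with independent noise and 200 changed genes. That setting differs from these arrays, so it does not vouch for single calls here. RefSeq promoter windows matched 9 of the 10 members.

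The members and lists were chosen with earlier results of these data known. All kallikreins were named, as were up to 5 genes per related list by adjusted p and a few fixed ones, of which SPINK5 and F2RL1 were not analysed here. SPINK6, PLAU, HPN, VDR, MBP, GFAP, SLC45A3, HOXB13, TRPM8, ACP4, CTU1 and the markers were named after their values were seen. Alternatives covered the replicate number as a block, omission of each array, median centring, cyclic loess, signal filters, other uses of the probe sets, a trended robust variance, array weights and treat; list counts without shNT replicate 2 were added after seeing the data. With 3 arrays per group, their number limits the precision.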

Additional observations from a re-analysis of the deposited data

How the results depend on the processing

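KLK6 passed under every alternative run. The count of kallikreins that fell was 0 in place of 1 with the replicate block, with each array centred on its median and with treat against a fold of 1.5; it ran from 0 to 1 with 1 array left out. The count that rose was 2 with median centring and 3 with array weights (KLK5 and KLK10 joined KLK6), and 1 to 2 with 1 array left out. Among the other kallikreins 1 passed with array weights (KLK1), and 0 to 1 with 1 array left out. Over all genes, 997 to 1935 were higher and 1048 to 1959 lower with 1 array left out. Median centring gave 2170 higher and 1321 lower, against 1758 and 1648, and moved the median of all genes to 0.04. The replicate block gave an adjusted p of 0.0901 for KLK7 and 4.79e-05 for KLK6, and changed no other kallikrein call. Deviations of same-numbered samples correlated at 0.12, -0.06 and -0.18, and those of unlike-numbered samples at -0.17 to 0.21. With 3 arrays per group, these correlations cannot decide whether the numbers pair the arrays. Of the values of 25 named genes called with all arrays, 342 kept the call and 27 lost it; of those of 16 not called, 221 stayed uncalled and 7 gained a call. None turned while called. Genes below the median signal (KLK2, KLK3, KLK13, KLK14) dropped out of the stricter filter, and their low signal limits what can be seen.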
